A study of Mus musculus with 5 samples.

Results

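Binding of KLF5 was described at 10 genes of the Nodal and BMP signalling pathways in mouse embryonic stem (ES) cells: Nodal, Lefty1, Lefty2, Tdgf1, Gdf3, Bmp4, Smad7, Id1, Id3 and Skil. KLF5 is a zinc-finger transcription factor of ES cells and of the early embryo. Every chromatin immunoprecipitation (ChIP-seq) peak that overlapped one of these genes or the 20 kb beyond either of its ends was taken. This gave 63 of the 45378 peaks of the V5-KLF5 list. The genes were 10 of 21887 protein-coding genes, and the rule that picks their peaks uses position alone. The genes themselves were chosen with earlier results of these data known, which limits every comparison with all protein-coding genes below.

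The series compared wild-type mouse ES cells overexpressing KLF5 with a V5 epitope tag, derived from C57B6/J mice, with untagged wild-type cells labelled ES-D3, an established mouse ES cell line. Anti-V5, normal mouse IgG and input DNA libraries were made from the tagged cells, and anti-V5 and input DNA libraries from the untagged cells. The run name inside the list of the untagged cells gives another ES line, JM8.N4, so that which line this control is remains uncertain. Each of the 5 groups had 1 library, so no value has a replicate check. The tagged protein was overexpressed, and binding of KLF5 at its normal level was not measured. Peak lists hold no expression, so the labelled cell type could not be checked against markers. The anti-V5 library of the tagged cells kept 23.2 M (mega) tags after removal of duplicates, the IgG library 24.5 M and the anti-V5 library of the untagged cells 21.8 M.

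Nodal is a secreted factor of the TGF-beta family that binds activin receptors together with the co-receptor CRIPTO, encoded by Tdgf1, and acts through SMAD2 and SMAD3. Its inhibitors Lefty1 and Lefty2 are themselves targets of the pathway and form its feedback. BMP4 acts through other SMAD proteins and induces the Id genes, whose products block basic helix-loop-helix factors. In mouse ES cells, BMP4 and the ID proteins are known to support self-renewal together with the cytokine LIF.

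Promoter sequence was at hand for 4 of the 10 genes, Nodal, Tdgf1, Bmp4 and Id3 (RefSeq, GRCm38.p6, the assembly that mm10 names). It is shown because a V5-KLF5 peak overlapped each of the 4 promoters, against 33.7% of the 32851 promoters in the table, counted over the 250 bases before and 50 after the start. The 250 bases before each start are printed 5′ to 3′ on the strand of the gene, and capitals mark matches to the KLF-type letters CCNCNCCC on either strand. The regions are chr10:61417722-61417971 (plus strand) for Nodal, chr9:110946159-110946408 (minus) for Tdgf1, chr14:46390670-46390919 (minus) for Bmp4 and chr4:136143572-136143821 (plus) for Id3.
Nodal: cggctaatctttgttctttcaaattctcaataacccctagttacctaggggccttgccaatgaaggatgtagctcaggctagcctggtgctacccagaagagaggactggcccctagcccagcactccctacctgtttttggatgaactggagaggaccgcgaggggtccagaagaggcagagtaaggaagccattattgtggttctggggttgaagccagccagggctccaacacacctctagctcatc
Tdgf1: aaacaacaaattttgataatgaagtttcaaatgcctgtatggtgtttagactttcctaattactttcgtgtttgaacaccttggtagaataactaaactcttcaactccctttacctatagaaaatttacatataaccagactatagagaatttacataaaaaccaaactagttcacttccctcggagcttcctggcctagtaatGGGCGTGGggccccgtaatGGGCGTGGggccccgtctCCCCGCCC
Bmp4: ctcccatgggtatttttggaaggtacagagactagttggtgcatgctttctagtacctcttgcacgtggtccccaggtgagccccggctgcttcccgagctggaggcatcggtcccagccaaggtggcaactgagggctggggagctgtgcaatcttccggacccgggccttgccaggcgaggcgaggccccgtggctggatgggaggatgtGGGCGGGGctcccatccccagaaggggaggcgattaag
Id3: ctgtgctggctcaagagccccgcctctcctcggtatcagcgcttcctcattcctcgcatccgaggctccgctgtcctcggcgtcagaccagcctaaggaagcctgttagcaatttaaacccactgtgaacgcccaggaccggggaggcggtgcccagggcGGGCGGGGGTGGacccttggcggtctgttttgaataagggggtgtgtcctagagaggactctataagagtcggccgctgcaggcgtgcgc

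The KLF-type letters stood 3 times before Tdgf1, 2 times before Id3, where the matches overlap, and 1 time before Bmp4. The Nodal promoter held none in this window, of which only the 105 bases next to the start lay in the peak. In the other 3 promoters the peak covered all 250 bases. The summit of the overlapping peak lay in the printed bases at Bmp4 and Id3. At Tdgf1 the summit lay 1275 bp before the start and at Nodal 781 bp inside the gene. The strongest Nodal peak did not reach the printed bases. The letters occur in 45.9% of all promoters, in 72.0% of those overlapped by a peak and in 32.7% of the others, so a match does not set these genes apart. The Tdgf1 promoter carried a pair of GGGCGTGG matches, from 45 to 38 and from 26 to 19 bases before the start, and a CCCCGCCC match from 8 to 1 bases before it. Its GC content was 42.0%, against a median of 52.4% over all promoters, while Bmp4 had 63.2%, Id3 62.8% and Nodal 53.2%.

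The other letters searched, on both strands, were the GC box CCGCCC, the CACC box CCACACCC, the SMAD element CAGAC, its palindrome GTCTAGAC, the BMP-type GGCGCC, the FOXH1-type AATCCACA, the octamer ATGCAAAT and TATAAA. The GC box was found before Bmp4, Tdgf1 and Id3 (32.7% of all promoters) and overlapped a KLF-type match in each. CAGAC was found before Tdgf1 and Id3 (42.2% of all promoters). None of the other letters occurred in the 4 promoters, and their shares of all promoters ran from 0.167% for the SMAD palindrome to 12.4% for TATAAA.

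All 10 genes had at least 1 peak in the gene or window, against 74.8% of all protein-coding genes. The number per gene ran from 3 at Nodal to 11 at Smad7, with a median of 5.5, where the median over all protein-coding genes was 2 (quartiles 0 and 5). The windows pooled together held 12.9 peaks per 100 kb, and gene by gene the rate ran from 6.33 at Nodal to 24.3 at Id1. The median of the rates of single protein-coding genes, with genes without a peak counted as 0, was 2.77. The IgG list held 3 peaks in all and 0 in these windows, and the list of the untagged cells held 0 peaks.

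Strength is given as the authors' fold enrichment, the ratio of the tag pileup at the summit plus 1 to the input background plus 1. Intervals are exact 95% Poisson intervals of the pileup on a fixed background and cover the counting error of the pileup only. Of the 10 genes, 8 had a peak whose fold enrichment reached 10, against 28.2% of protein-coding genes. The strongest peak per gene had a median fold enrichment of 15.7, against 8.45 over the 16381 protein-coding genes with a peak. Both comparisons depend on the number of peaks per gene, since the strongest of many tends to be higher. That number had a median of 5.5 here and 2 over all protein-coding genes, and no match for it was made. Both comparisons also rest on genes chosen with earlier results of these data known. The 63 peaks as a whole were ordinary in strength. Their median was 5.05 (quartiles 4.11 and 7.77) where that of all peaks was 5.18 (quartiles 4.15 and 7.45), and 11 of them (17.5%) reached 10, against 13% of all peaks. At 6 of the 8 genes a single peak reached 10, with 2 at Id1 and 3 at Nodal.

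**Figure D1:**
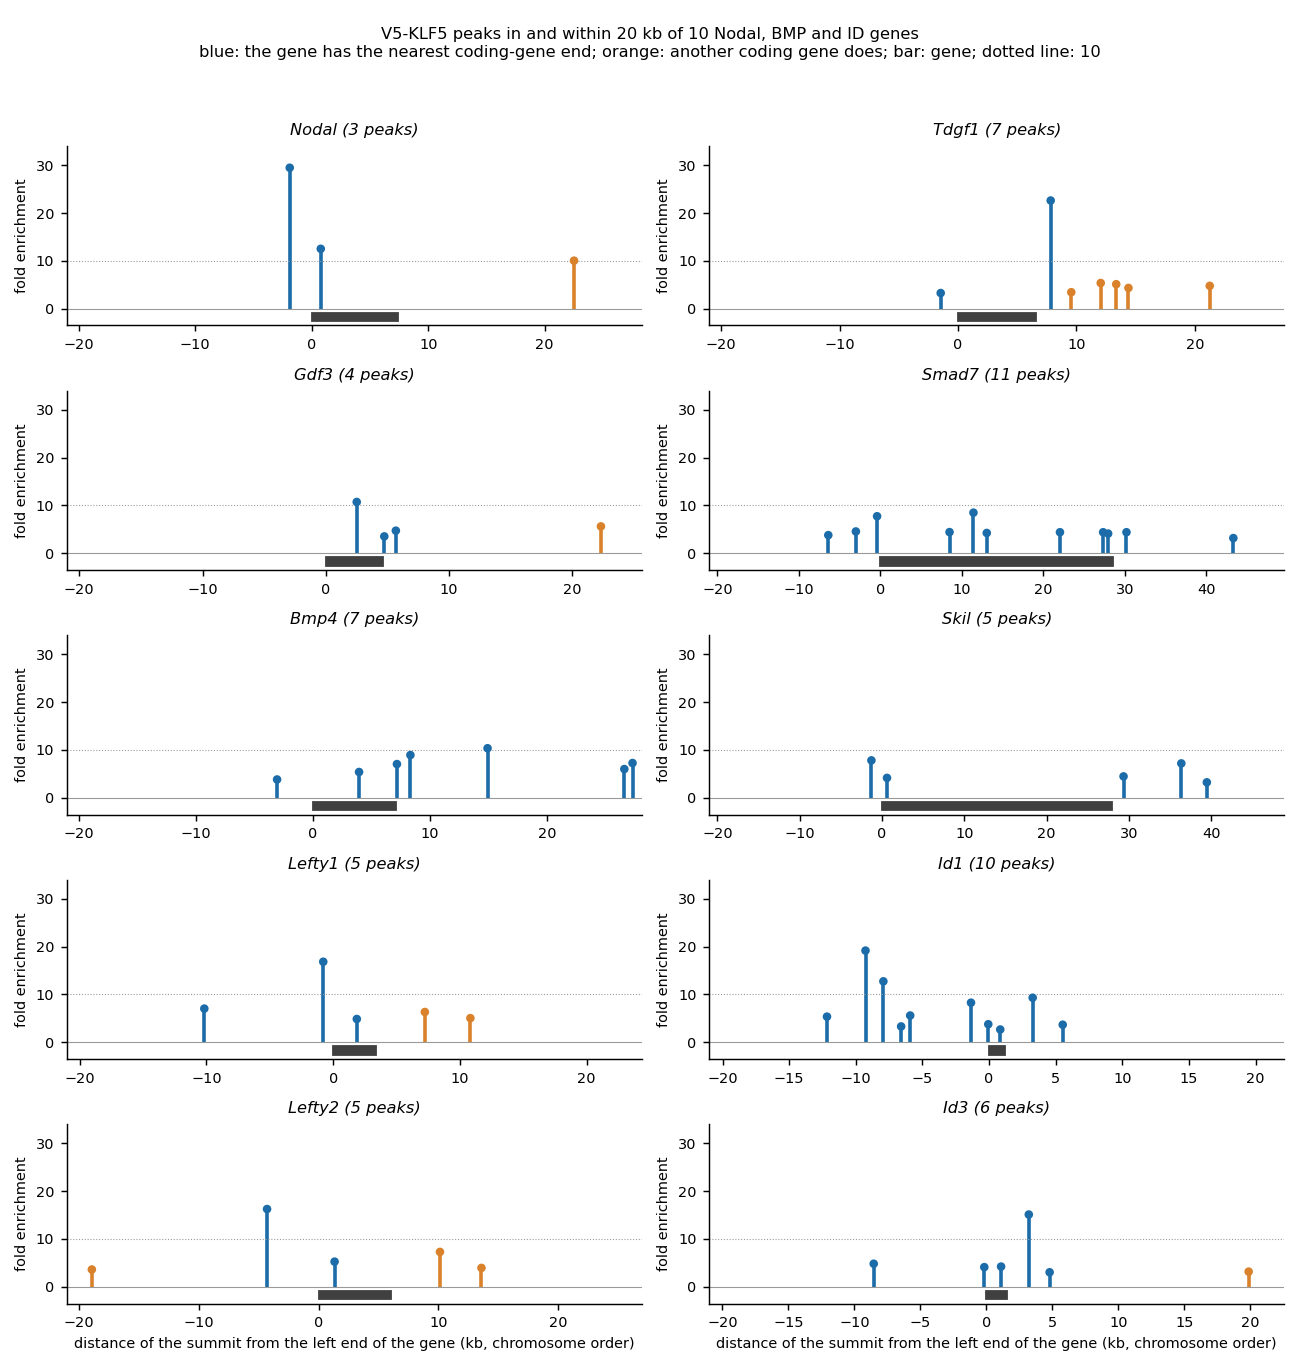
V5-KLF5 peaks at each of the 10 genes. The x axis gives the distance of the summit from the left end of the gene in kb, in chromosome order, and the y axis the fold enrichment over input (a ratio). Blue stems are peaks for which the gene has the nearest end of a protein-coding gene, orange stems peaks nearer another one, the bar is the gene, and the dotted line stands at 10. Nodal and Tdgf1 have 1 tall stem just outside the gene, Id1 has a group of stems to its left, and Smad7 and Skil have no stem above 10.

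The order of the strongest peaks was Nodal (29.5, interval 25.2 to 34.3), Tdgf1 (22.6, 19.1 to 26.6), Id1 (19.2, 15.9 to 22.9), Lefty1 (16.8, 13.2 to 21.2), Lefty2 (16.2, 13.1 to 19.9), Id3 (15.1, 11.9 to 19.0), Gdf3 (10.7, 8.20 to 13.8), Bmp4 (10.3, 7.76 to 13.5), Smad7 (8.48, 6.12 to 11.5) and Skil (7.81, 5.38 to 11.0). The intervals of all neighbours in this order overlapped, so at most genes farther apart are separated. These intervals hold the background fixed and leave out the counting error of the input. On that fixed background, the interval of Nodal lay above those of Id1 and of the 7 genes after it. The intervals of the pileups themselves overlapped for Nodal (140 to 191) and Id1 (100 to 145). The 10 strongest peaks were each nearer to an end of the gene itself than to that of any other protein-coding gene, which held for 58.4% of protein-coding genes with a peak. Of all 63 peaks, 50 were nearest to the gene itself and 13 to another protein-coding gene.

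**Figure D2:**
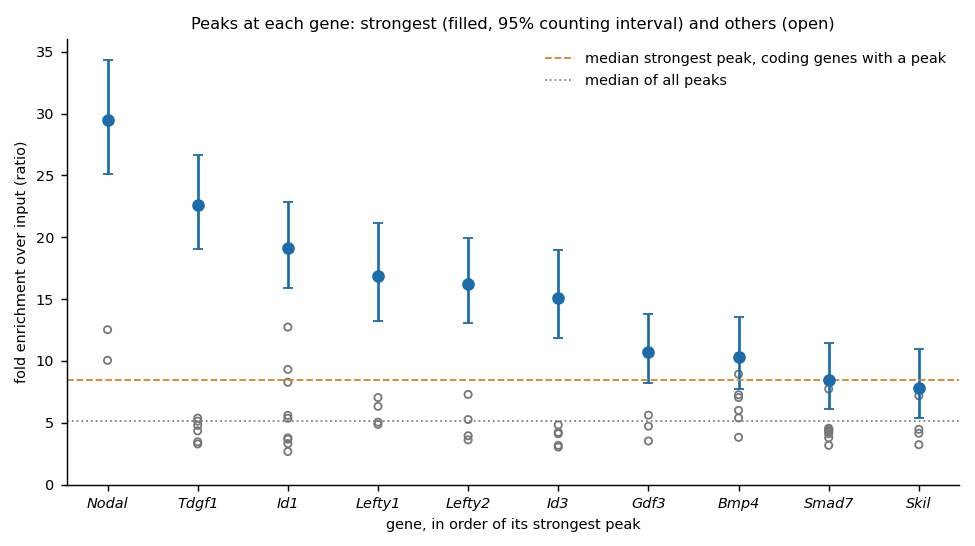
Fold enrichment over input (y axis, a ratio) of all 63 peaks, by gene (x axis, in order of the strongest peak). Filled points are the strongest peak of each gene with its 95% Poisson interval, open points the other peaks, the dashed line is the median strongest peak of protein-coding genes with a peak (8.45) and the dotted line the median of all peaks (5.18). The filled points fall from 29.5 at Nodal to 7.81 at Skil, and most open points lie near the dotted line.

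Of the ligand genes among the 10, Nodal carried the strongest binding and had the fewest peaks, though more than 53.7% of protein-coding genes. Nodal (chromosome 10, 61417972 to 61425338, mm10) had 3 peaks, and all of them reached 10. The strongest, at chr10:61415697-61417092, had its summit 1883 bp before the start site, a pileup of 164 tags on an input background of 4.60 and a fold enrichment of 29.5, which made it number 146 of all 45378 peaks. It was 2.35 times the next one, which covered the start at chr10:61417867-61418983 with its summit 781 bp inside the gene, a pileup of 54 and a fold enrichment of 12.5. The remaining peak, at 61440170 to 61440677, had a pileup of 41 and a fold enrichment of 10.04. Its summit lay inside Eif4ebp2, which encodes an inhibitor of translation initiation, 15151 bp from Nodal and 11998 bp from the nearer end of Eif4ebp2.

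Gdf3 encodes a ligand related to Nodal that ES cells express, and its binding centred on the gene itself. Gdf3 (chromosome 6, 122605403 to 122610087) had 4 peaks. The strongest lay at chr6:122607600-122609174, with its summit inside the gene, 2168 bp from the nearer end, with a pileup of 59 and a fold enrichment of 10.7. Gdf3 and Smad7 were the only 2 of the 10 genes whose strongest peak had its summit inside the gene. At the right end, peaks with summits 68 and 1007 bp outside the gene had fold enrichments of 3.52 and 4.72. The last peak, with 5.61, lay 17652 bp away inside Dppa3, an ES cell marker gene.

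Bmp4 differed from Nodal in having several peaks of like strength. Bmp4 (chromosome 14, 46383525 to 46390669, minus strand) had 7 peaks, and no other protein-coding gene had an end nearer to any of them. The strongest, at chr14:46398238-46398908, had its summit 7789 bp before the start site, with a pileup of 51 and a fold enrichment of 10.3. That was only 1.16 times the next, at 46391513 to 46392230, 1197 bp before the start, with a pileup of 49 and 8.93. The peak over the printed promoter, with its summit 46 bp before the start, had the highest pileup of the gene, 60, but a fold enrichment of 7.04, because its input background was 7.67 against 4.03 and 4.60 at those peaks. A pair of peaks farther upstream, with summits 19473 and 20175 bp before the start, had 6.00 and 7.26. Inside the gene the fold enrichment was 5.39, at a summit that also lay in the lncRNA Gm15222, and beyond the 3′ end it was 3.82, in the lncRNA Gm15217.

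The feedback inhibitors Lefty1 and Lefty2 lie beside each other on chromosome 1, and their peaks were alike in number and strength. Their windows overlap by 4.09 kb, but no peak fell in both. Each had 5 peaks, of which 1 reached a fold enrichment of 10, with the next at 7.04 and 7.29. At Lefty1 (180935022 to 180938401) the strongest lay at chr1:180933658-180935185. Its summit stood 783 bp to the left of the gene, with a pileup of 71 and a fold enrichment of 16.8. At Lefty2 (180893108 to 180899107) the strongest lay at chr1:180887982-180889542. Its summit stood 4305 bp to the left of the gene, with a pileup of 90 and a fold enrichment of 16.2. These 2 values have intervals of 13.2 to 21.2 and 13.1 to 19.9, which overlap over most of their length.

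Inside the genes, Lefty1 had a fold enrichment of 4.87 and Lefty2 of 5.26, each at 1 peak. The 3 Lefty1 peaks with summits from 180924856 to 180936887 also lay in Gm39715, a lncRNA gene that spans much of Lefty1. To the right of Lefty1, peaks with 6.33 and 5.05 were nearer to Tmem63a, the first of them 31 bp from its end. To the right of Lefty2 stood 2 peaks with 7.29 and 3.95. A peak 18925 bp to its left, with 3.61, was nearer to Sde2.

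Tdgf1, the co-receptor gene, had 1 very strong peak and otherwise weak ones. Tdgf1 (chromosome 9, 110939608 to 110946158, minus strand) had 7 peaks and 0 summits inside the gene, where each of the other 9 genes had at least 1 (50.9% of protein-coding genes did). The strongest, at chr9:110945932-110948472, was the longest of the 63 peaks with 2541 bp. Its summit lay 1275 bp before the start, with a pileup of 143, a fold enrichment of 22.6 and rank 449 among all peaks. It reached over the start and the printed promoter. At 4.21 times the next peak, it stood farther above the rest of its gene than the strongest peak of any of the other 9 genes. The next, with 5.37, was among 5 peaks nearer to Lrrc2, 4 of them with summits inside that gene, which lies to the right of Tdgf1. These 5 had fold enrichments of 3.45 to 5.37, and the peak 1459 bp beyond the 3′ end of Tdgf1 had 3.28.

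No peak of the intracellular inhibitor genes reached 10. Smad7 encodes an inhibitory SMAD that blocks the receptors, and Skil encodes SnoN, a repressor bound by SMAD proteins. Smad7 (chromosome 18, 75367365 to 75395935) had 11 peaks, more than 96.7% of protein-coding genes, and 6 of their summits lay inside the gene. The strongest, inside the gene at 75378542 to 75379162, had a pileup of 40 and a fold enrichment of 8.48, and the peak with its summit 401 bp to the left of the gene had a higher pileup of 66 but 7.73, on a background of 7.67 against 3.83. The other 9 had 3.17 to 4.55. Skil (chromosome 3, 31095058 to 31122923) had 5 peaks. The strongest stood 1296 bp to the left of the gene, with a pileup of 31 and 7.81, and another 8480 bp to the right had a pileup of 30 and 7.18. The strongest peaks of Smad7 and Skil were near the 8.45 median of protein-coding genes with a peak, and these are the longest of the 10 genes, with 28571 and 27866 bp.

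Id1 had the densest binding, with 10 peaks in a window of 41.2 kb, which is 24.3 per 100 kb and the highest density of the 10 genes. Id1 (chromosome 2, 152736251 to 152737410) had more peaks than 95.4% of protein-coding genes, and the gene itself measures only 1160 bp. Of the 10 summits, 7 lay to the left of the gene, and 5 of these peaks fell in 6.75 kb, from 152723844 to 152730596. That group held the strongest, at chr2:152726455-152727489, 9271 bp from the gene, with a pileup of 121 and a fold enrichment of 19.2, and the next, at 152727819 to 152728653, 7930 bp from the gene, with a pileup of 63 and 12.7. At the gene itself binding was weak. The summit 59 bp to its left had a fold enrichment of 3.77 and the summit inside it 2.67, the lowest of all 63 peaks. Peaks 1355 bp to the left and 2114 bp to the right had 8.28 and 9.31. With a window of 5 kb in place of 20 kb the strongest peak of Id1 was therefore 9.31.

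Id3 shared with Id1 a strong peak away from the start and weak ones at the gene. Id3 (chromosome 4, 136143822 to 136145392, plus strand) had 6 peaks. The strongest, at chr4:136146687-136147837, had its summit 1640 bp beyond the 3′ end, with a pileup of 72 and a fold enrichment of 15.1, 3.13 times the next. The peak over the printed promoter, with its summit 161 bp before the start, had a pileup of 22 and a fold enrichment of 4.11, and the peak inside the gene had 4.23. Peaks with summits 8537 bp before the start and 3218 bp beyond the 3′ end had 4.82 and 3.04, and the outermost, nearer to the cell-cycle gene E2f2, had 3.17.

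By place, the lowest median fold enrichment was found near the ends of the 10 genes themselves. Starts and 3′ ends were not told apart. Place was taken from the summit alone, so the strongest Tdgf1 peak, which reached over the start, counts as 1 to 5 kb outside. Ends of other genes were not counted, so a Lefty1 peak 31 bp from Tmem63a and a Tdgf1 peak 111 bp from Lrrc2 count as outside. The 11 peaks with summits within 1 kb of an end of their gene had a median fold enrichment of 4.15, and 2 of them reached 10, at Nodal and Lefty1. The 19 peaks 1 to 5 kb outside had a median of 6.33, the 24 peaks more than 5 kb outside 5.24, and the 9 peaks inside a gene and more than 1 kb from its ends 4.87. The median input background was 4.60 at the 11 peaks near an end and 3.83, 3.83 and 3.57 in the other places. The median pileups were 22, 28, 26 and 23 in the same order. The part of the input in these differences was not tested, and the ranges of the 4 places overlapped.

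The input background was higher under these peaks than over the list. The peak caller applies a floor of 3.10, and 12.7% of the 63 peaks were at this floor, against 37.9% of all peaks. The median background was 3.83 against 3.45. The highest background of the 63 was 7.67, at peaks of Bmp4, Lefty1 and Smad7. The peaks were also longer, with a median of 516 bp against 427 bp for all peaks, and 12.7% of them exceeded 1 kb, against 5.87% of all peaks.

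**Figure D3:**
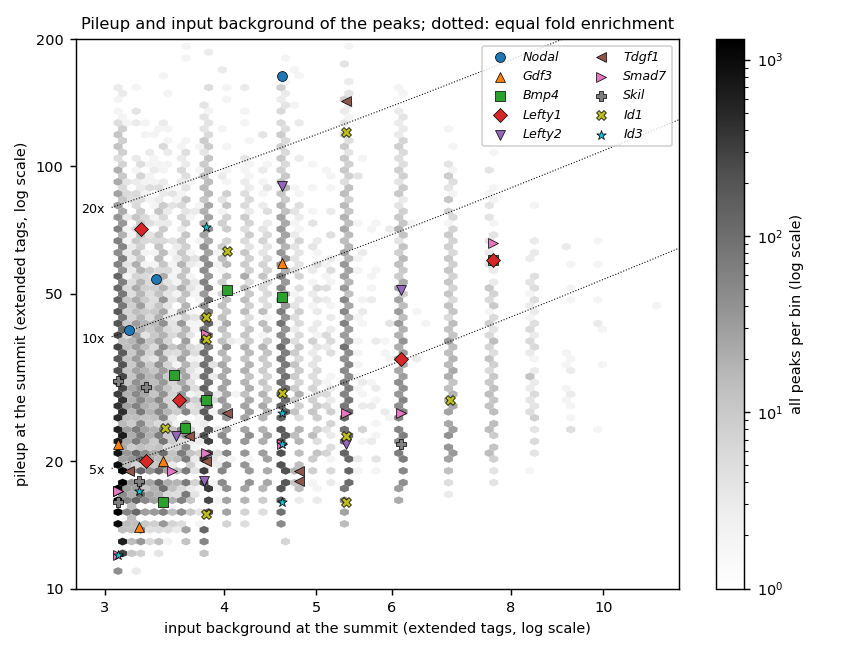
Pileup at the summit (y axis, extended tags, log scale) against the input background there (x axis, extended tags, log scale). Grey bins hold all peaks with a background under 12 and a pileup under 200, symbols are the 63 peaks by gene, and dotted lines join equal fold enrichment. The Nodal, Tdgf1 and Id1 summits with pileups of 164, 143 and 121 lie highest, and peaks of Bmp4, Lefty1 and Smad7 lie farthest to the right.

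The 20 kb limit cut through a group of peaks at Bmp4. Just inside it were the Bmp4 peaks whose edges lay 19.3 and 19.97 kb from the gene, with fold enrichments of 6.00 and 7.26, besides a Lefty2 peak at 18.6 kb with 3.61. Just outside were a Smad7 peak at 21.4 kb with 3.80, a Bmp4 peak at 21.7 kb with 4.01 and a Smad7 peak at 22.0 kb with 6.15.

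The rest of the pathway was taken from a list of 58 other genes. Of these, 52 (89.7%) had a peak in the gene or within 20 kb, and 20 (34.5%) had one of at least 10, against 74.8% and 28.2% of protein-coding genes. Their median strongest fold enrichment, 7.91, was below the 8.45 of protein-coding genes with a peak. For 36 of the 52 genes the strongest peak was nearest to the gene itself. The genes without a peak included the ligand genes Bmp2 and Bmp5, the secreted inhibitor gene Cer1, the BMP receptor gene Bmpr1a and Smad5. A lack of called peaks at this depth does not show that KLF5 is absent there.

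Of the 9 roles, the nuclear repressors and partners of SMAD proteins had the highest median, with 4 of 5 genes at 10 or more and a median strongest fold enrichment of 20.3. Ski, the relative of Skil, had 10 peaks, the strongest 3148 bp outside the gene (chr4:155150407-155151390) with a pileup of 149 and a fold enrichment of 36.6, higher than at any of the 10 genes. Tgif2, a homeobox repressor gene, had 23.1 at a summit 119 bp inside an end. Tgif1 had 20.3 at a summit nearer to Dlgap1. Among the convertase genes, which encode proteases that process Nodal, Pcsk6 had 27.3 inside the gene and Furin 5.37, at a summit nearer to Fes.

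Of the 16 other ligand genes 14 had a peak and 5 reached 10. Bmp8a led with 21.2 at a summit 98 bp outside the gene, followed by Bmp8b with 15.1 and Tgfb1 with 11.4, the last at a summit nearer to Tmem91. Among 9 secreted or membrane inhibitor genes, 7 had a peak and 2 reached 10, led by Chrd (12.7, nearer to Clcn2), Fstl3 (10.3, nearer to Prss57) and Grem1 (8.09). The 3 co-receptor genes had 12.6 at Eng, nearer to Ak1, 11.8 at Cfc1, which encodes a relative of CRIPTO, nearer to Prss40, and 5.05 at Tgfbr3.

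Receptor genes had a peak in 9 of 10, and 2 reached 10: Tgfbr2 with 26.4, 18361 bp outside the gene, and Acvr1b with 13.3, nearer to Grasp. Acvr2a was next with 9.16, at a summit inside the gene but nearer to an end of Orc4. Among the SMAD genes 6 of 7 had a peak, led by Smad6, the inhibitory relative of Smad7, with 12.4, Smad2 with 11.96 and Smad4 with 7.81. The SMAD turnover genes had 11.7 at Pmepa1, 8.02 at Ppm1a and 7.81 at Smurf1, the last with 12 peaks. The ID genes outside the 10 had 10.2 at Id2 and 8.39 at Id4, with both summits outside the gene, 9986 and 8318 bp from it.

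**Figure D4:**
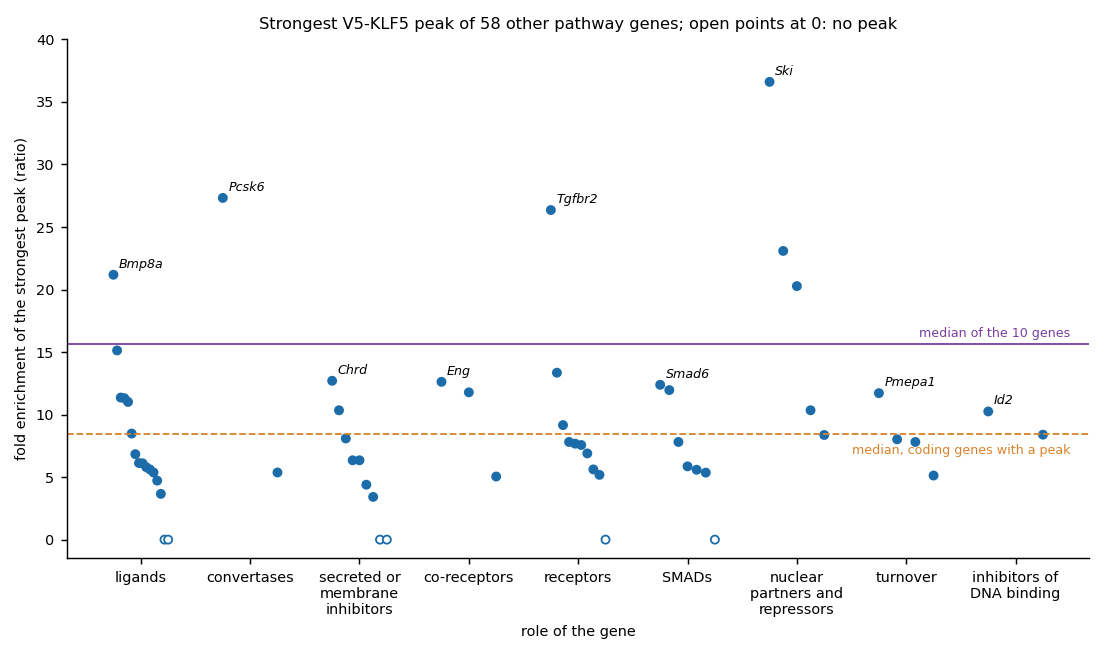
Fold enrichment of the strongest V5-KLF5 peak (y axis, a ratio) of 58 other pathway genes, by role (x axis). Each point is a gene, open points at 0 are genes with no peak, the leading gene of each role is named, the upper line is the median of the 10 Nodal, BMP and ID genes (15.7) and the dashed line that of protein-coding genes with a peak (8.45). Ski, Pcsk6 and Tgfbr2 stand highest, and 6 genes have no peak.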

How the data were processed

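The members and gene lists were chosen with earlier results of these data known, and no test was run because each group has 1 library. The authors called peaks with MACS2 2.1.0.20140616 on single libraries against the input of the same cells, per the file headers: tags of 51 bp were extended to 250 bp, 1 tag per position was kept and the q-value cutoff was 0.05. The build is mm10 and Bowtie 0.12.8 is named, per the submitters' processing notes. The handling of multi-mapping tags was not given in the sources used here. Each deposited peak has a pileup signal, the −log10 of its p-value and q-value, and a fold enrichment (ratio), used here as the authors' description of that peak. The control list with 0 peaks has a header alone.

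The input background was computed as (pileup + 1) / fold enrichment − 1. For 99.98% of peaks, a Poisson p of the pileup on it came within 1% of the deposited value (−log10 scale). Genes and promoters came from RefSeq (GRCm38.p6). All 10 and 58 symbols matched. The gene table gives no strand or exons, so start sites are used only for the 4 genes with a promoter entry, and other distances run to the nearer gene end. Peak intervals and summits were joined to genes with pandas 2.3.3, and Poisson intervals came from scipy 1.17.1. The window join and intervals were tested on simulated data. All 10 genes are named, and of the 58 others the 3 strongest of each role and those without a peak, except for items not reported here. Alternatives were windows of 5, 10 and 50 kb, summits in place of peaks, −log10 q of at least 5 or 10, peaks nearest to the gene only, and pileup or −log10 q as strength.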

Additional observations from a re-analysis of the deposited data

How the results depend on the processing

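Of 114 values recomputed under 9 alternatives, 107 stayed within 1.5 times the reported count or within the counting interval of the reported fold enrichment. Many of these could not change. The strongest peak of each gene passed both q-value limits, had its summit in the window and was nearest to its gene. Its fold enrichment was therefore fixed under the summit, q-value and nearest-gene alternatives, as was the count of genes with a peak. Within 50 kb the Lefty2 value, 16.8, was that of the Lefty1 peak. All 10 genes had a peak in each of the 7 alternatives for windows and thresholds. The share of all protein-coding genes with a peak was 67.2%, 70.6% and 81.1% within 5, 10 and 50 kb, 74.7% by summits, and 72.2% and 61.3% at a −log10 q of at least 5 and 10, and it was not computed for peaks nearest to the gene only. The number of peaks followed the window and the q-value by construction: 63 as reported, 39 within 5 kb, 108 within 50 kb and 29 at a −log10 q of at least 10. The strongest fold enrichment of Id1 was 9.31 within 5 kb and 24.3 within 50 kb, against 19.2. That of Bmp4 was 8.93 within 5 kb, against 10.3. Within 5 kb, 6 of the 10 genes thus had a peak that reached 10, against 8 as reported. The share of all protein-coding genes that reached 10 was not computed for the other windows. The order of the 10 genes was less firm: 5 genes kept their place with pileup as the measure of strength and 6 with −log10 q. Nodal, Tdgf1 and Id1 came first and Skil last by all 3 measures. No paired analysis was possible because each group has 1 library. Tag depth sets the lowest callable pileup, and the lists show no control signal below the calling threshold.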
